A study of Mus musculus with 10 samples.

Results

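Cells of the skin's epithelium are held to one another by adherens junctions, desmosomes and tight junctions, and the genes described here encode the core of all 3 junction types in mouse hair follicle stem cells (HFSCs). The set was chosen by name from the deposited expression table. It holds every row whose symbol is a numbered classical or related cadherin (Cdh), a desmocollin (Dsc), a desmoglein (Dsg), a plakophilin (Pkp) or a claudin (Cldn), together with desmoplakin (Dsp), plakoglobin (Jup), the catenins Ctnna1, Ctnnb1 and Ctnnd1, ZO-1 (Tjp1) and occludin (Ocln). This gave 72 of 37298 rows: 25 cadherins, 3 catenins, 9 desmosomal cadherins, 6 desmosomal plaque genes, 27 claudins, and the pair of occludin and ZO-1. No expression or binding value entered the rule itself, although it was set with earlier results of these data known.

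HFSCs are the resting stem cells of the follicle's bulge, and SOX9 is a transcription factor they express. The study measured RNA in 4 HFSC libraries, 2 labelled Sox9 conditional knockout (cKO) and 2 control, and mapped where SOX9 sits on chromatin with ChIP-seq, 2 libraries of HFSCs and 1 of interfollicular epidermis (IFE), the epidermis between follicles. RNA came from back-skin cells sorted as integrin α6-high, CD34-positive, ScaI-negative and YFP-positive, of mice on a mixed C57BL6 background. Recombination relied on CrePGR, a Cre recombinase that RU486 activates and whose promoter the labels used here do not name, and the sort kept YFP-positive cells. The control libraries are titled Het, while their genotype field reads wild type. Replicate 1 of each genotype is labelled male, day 75, with RU486 from day 48 to 61, and replicate 2 female, day 80, with RU486 from day 53 to 66. The ChIP cells were sorted from untreated CD-1 females of day 52 to 60 without the YFP gate, HFSCs as CD34-positive and IFE cells as CD34-negative, both integrin α6-high and ScaI-negative. The labels do not say how many mice went into a library, and the p-values cover no more than how these 4 libraries vary.

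Classical cadherins hold neighbouring cells together through their extracellular repeats and connect to actin through p120-, β- and α-catenin. Desmosomal cadherins connect through plakoglobin, plakophilins and desmoplakin to the keratin filaments. Claudins and occludin form the tight junction, with ZO-1 as its scaffold, and in the epidermis they seal the granular layer.

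Some facts of the libraries touch all results. Sox9 itself stood at 71.3 FPKM (mapped fragments scaled by transcript length and by the library's total) in the labelled cKO and 82.7 in the control of replicate 1, and at 80.5 and 46.5 in replicate 2, so that its level did not separate the genotypes and the libraries are called by their labels. Summed FPKM lay between 555420 and 584125 in the replicate 1 libraries and between 786914 and 903766 in replicate 2. All 8 bulge stem cell markers were at a mean of at least 1 FPKM, although several differed between the pairs, as given below. Melanocyte markers summed to at most 3.42 FPKM, endothelial ones to at most 3.97, Schwann cell ones to at most 10.4 and muscle ones to at most 14.7. Fibroblast markers summed to between 8.64 and 22.5 FPKM and immune markers to between 46.8 and 123, with Ptprc, Cd3e and Lyz2 below 1. Merkel cell markers summed to at most 21.9 FPKM. Sebocyte markers summed to between 287 and 405 FPKM, and those of the inner bulge or companion layer to between 572 and 760. Markers of the suprabasal epidermis were abundant and summed to 4033 (labelled cKO) and 4302 FPKM (control) in replicate 1 and to 8108 and 12719 in replicate 2. In bulk RNA, fewer cells of a type and less RNA per cell cannot be told apart.

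The promoters of 6 of these genes show the kinds of locus met in the binding data. SOX9 peaks of all 3 lists span the start of Jup and of Cldnd1 (listed under its older symbol Cldn25), only an IFE peak spans the start of Dsp and of Tjp1, and Cldn1 and Cldn4 are abundant claudins with no peak within 10 kb. Each sequence is the 250 bases before a RefSeq start, from GRCm38.p6, 5′ to 3′ on the gene's strand. The motifs searched were the core SOX sequences ACAAAG and ACAATG on both strands, and capitals mark a match.
Jup (chr11:100397791-100398040, minus strand): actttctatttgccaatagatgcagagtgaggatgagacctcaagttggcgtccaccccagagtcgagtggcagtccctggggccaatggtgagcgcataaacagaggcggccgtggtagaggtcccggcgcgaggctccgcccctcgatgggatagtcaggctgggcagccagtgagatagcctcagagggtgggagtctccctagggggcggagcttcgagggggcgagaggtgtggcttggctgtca
Cldnd1 (chr16:58727660-58727909, plus strand): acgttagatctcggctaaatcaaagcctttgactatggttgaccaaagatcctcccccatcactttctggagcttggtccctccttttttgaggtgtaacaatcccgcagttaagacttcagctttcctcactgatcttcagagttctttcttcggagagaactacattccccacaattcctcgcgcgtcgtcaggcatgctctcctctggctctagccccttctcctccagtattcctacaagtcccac
Dsp (chr13:38151044-38151293, plus strand): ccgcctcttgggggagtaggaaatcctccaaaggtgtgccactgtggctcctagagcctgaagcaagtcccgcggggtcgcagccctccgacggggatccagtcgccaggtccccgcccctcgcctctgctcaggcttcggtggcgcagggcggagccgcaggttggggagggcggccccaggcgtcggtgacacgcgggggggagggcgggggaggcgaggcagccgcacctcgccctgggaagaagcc
Tjp1 (chr7:65371245-65371494, minus strand): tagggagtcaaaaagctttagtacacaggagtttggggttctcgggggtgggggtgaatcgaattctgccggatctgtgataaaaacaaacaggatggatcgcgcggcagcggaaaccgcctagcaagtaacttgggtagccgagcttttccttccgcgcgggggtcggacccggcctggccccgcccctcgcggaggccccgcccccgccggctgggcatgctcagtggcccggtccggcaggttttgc
Cldn1 (chr16:26371840-26372089, minus strand): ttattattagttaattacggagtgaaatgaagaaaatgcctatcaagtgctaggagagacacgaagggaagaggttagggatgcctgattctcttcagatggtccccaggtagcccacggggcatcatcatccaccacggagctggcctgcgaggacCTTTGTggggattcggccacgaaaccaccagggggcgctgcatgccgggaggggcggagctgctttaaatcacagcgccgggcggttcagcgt
Cldn4 (chr5:134946935-134947184, minus strand): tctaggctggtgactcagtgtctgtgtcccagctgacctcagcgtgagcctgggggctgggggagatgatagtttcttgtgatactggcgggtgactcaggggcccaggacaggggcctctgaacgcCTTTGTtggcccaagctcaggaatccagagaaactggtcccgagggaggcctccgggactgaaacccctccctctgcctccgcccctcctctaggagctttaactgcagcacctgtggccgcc
The Jup, Cldnd1, Dsp and Tjp1 windows held neither motif, which says only that these letters are not in these 250 bases. Cldn1 and Cldn4 each held 1 match, ACAAAG on the opposite strand, beginning 93 and 123 bases before the start. Of all 32851 RefSeq windows of this length 8292 held either motif (25.2%), against 8 of 55 windows of the junction genes (14.5%), which cover 41 of the 72 rows. These positions belong to GRCm38 and are not comparable with the mm9 positions given for loci and peaks.

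Of the 72 rows, 31 had a mean of at least 1 FPKM over the 4 libraries and were tested, and 23 had a mean of at least 10. The other 41 were not tested and reached at most 1.96 FPKM, and 16 of them, 11 claudins and 5 cadherins, are listed at 0 in every library. The level of 1 FPKM was thus reached by a small part of the cadherin and claudin families (6 of 25 and 7 of 27) and by nearly all catenins, desmosomal cadherins and plaque genes (3 of 3, 8 of 9 and 5 of 6). Levels below are FPKM, which is scaled by length, so that genes can be set side by side. The 4 values of a gene come in 1 order, which is labelled cKO and control of the male pair (replicate 1), then labelled cKO and control of the female pair (replicate 2).

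**Figure D1:**
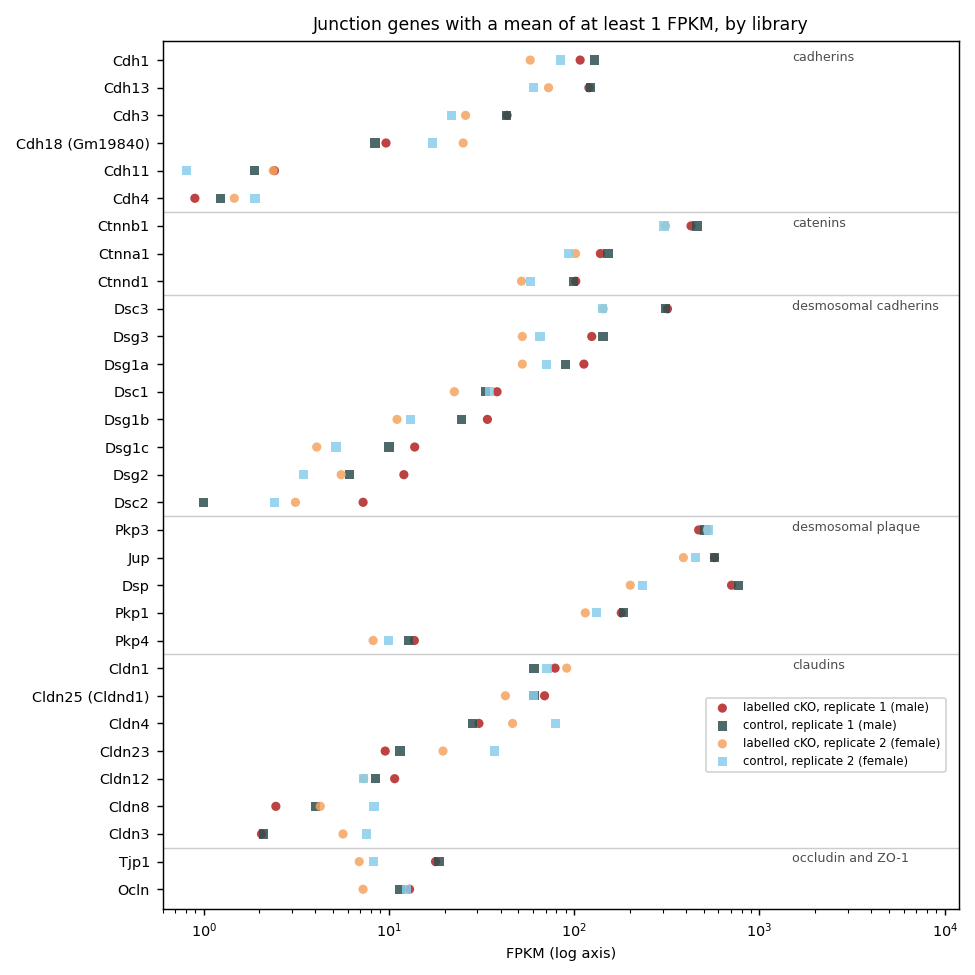
FPKM on a log axis of the 31 junction genes with a mean of at least 1 FPKM, 1 point per library, grouped by junction role (circles, labelled cKO; squares, control; dark, replicate 1; light, replicate 2). For Dsp and Dsc3 the dark and light points lie well apart, whereas circles and squares of the same shade lie close together.

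Among the cadherins, E-cadherin (Cdh1, the main classical cadherin of epithelia) stood at 108, 129, 57.9 and 84.3 FPKM. P-cadherin (Cdh3, which basal and follicle cells carry beside E-cadherin) stood at 43.4, 43.2, 25.9 and 21.8 FPKM. Cdh13 (T-cadherin, which has a lipid anchor in place of a cytoplasmic tail) stood at 120, 122, 72.7 and 60.2 FPKM. Both replicate 1 libraries lay above both replicate 2 libraries for each of the 3 genes, and Cdh1 was 2.23 to 3.88 times the level of Cdh3 in every library. Another row above 10 FPKM carries the symbol Cdh18, but its identifier (ENSMUSG00000091194) belongs to Gm19840 in the names table. That row stood at 9.64, 8.40, 25.2 and 17.1 FPKM, while the other Cdh18 row reached 0.0479 FPKM, so the value is not taken as Cdh18. Cdh11, a cadherin of mesenchyme, stood at 2.41, 1.88, 2.37 and 0.807 FPKM. Cdh4 (R-cadherin) reached 1.89 FPKM.

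Apart from Cdh11, whose level is given above, the cadherins named here that mark other cells were at or near 0. VE-cadherin (Cdh5, of endothelium) was at most 0.112 FPKM, M-cadherin (Cdh15, of muscle) at most 0.0119 and Cdh19 (of Schwann cells) at most 0.0186. N-cadherin (Cdh2, of neural and mesenchymal cells) was at 0.0205 and 0.240 FPKM in the labelled cKO libraries and listed at 0 in both controls.

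All catenins were abundant. β-Catenin (Ctnnb1, which binds the cadherin tail and also acts in WNT signalling) stood at 427, 460, 311 and 305 FPKM. α-Catenin (Ctnna1, the actin link) stood at 138, 152, 102 and 93.5 FPKM. p120-Catenin (Ctnnd1, which keeps cadherins at the membrane) stood at 102, 99.0, 51.9 and 58.1 FPKM. The order of the 3 genes was the same in every library, and both male libraries lay above both female ones for each gene. The Ctnnb1 row shares a listed locus of 353 kb with 4 other rows, Ulk4 among them.

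Of the desmosomal cadherins, Dsc3 and Dsg3 are the desmocollin and desmoglein of the basal layer. Dsc3 was the highest in every library, and Dsg3 lay above Dsg1a in the male libraries only. Dsc3 stood at 319, 312, 143 and 142 FPKM. Dsg3 stood at 124, 143, 52.5 and 65.4 FPKM. Both lay higher in the male libraries, while the ratio of Dsc3 to Dsg3 was 2.56, 2.18, 2.73 and 2.17 and overlapped between the pairs. Isoforms of the upper layers were also present. Desmoglein 1 has 3 neighbouring, nearly identical mouse copies between which reads can be split, and of these Dsg1a stood at 113, 89.3, 52.5 and 71.0 FPKM. Dsg1b stood at 34.0, 24.5, 11.1 and 13.1 FPKM, and Dsg1c at 13.8, 9.99, 4.07 and 5.18. Dsc1 stood at 38.3, 33.2, 22.5 and 35.0 FPKM, with the genotypes overlapping. The ratio of Dsc3 to Dsc1 was 8.32 and 9.39 in the male pair and 6.36 and 4.06 in the female pair, and Dsg3 to Dsg1a was 1.10, 1.60, 1.00 and 0.922. The suprabasal marker sum given above was higher in the female libraries, and its part in these ratios was not tested.

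The desmocollin and desmoglein of simple epithelia and heart were low. Dsc2 stood at 7.25, 0.995, 3.13 and 2.41 FPKM. Dsg2 stood at 12.0, 6.12, 5.52 and 3.47 FPKM. For Dsc2 both labelled cKO libraries lay above both controls, while for Dsg2 the genotypes overlapped. Dsg4, the desmoglein of the hair shaft, reached 0.0892 FPKM.

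By mean level over the 4 libraries the plaque genes Dsp, Jup and Pkp3 were the highest of the set, although Ctnnb1 lay above Dsp in both female libraries. Desmoplakin (Dsp, the link to keratin) stood at 707, 771, 201 and 234 FPKM. Plakoglobin (Jup, which serves desmosomes and adherens junctions alike) stood at 571, 571, 388 and 453 FPKM. Plakophilin 3 (Pkp3) stood at 470, 508, 522 and 533 FPKM, the steadiest of the plaque genes. Plakophilin 1 (Pkp1, of stratified epithelia) stood at 179, 184, 115 and 132 FPKM and Pkp4 at 13.7, 12.7, 8.21 and 9.95. The plaque order thus changed between the pairs. Dsp was 1.51 and 1.52 times Pkp3 in the male libraries and 0.384 and 0.440 times Pkp3 in the female ones. Pkp2, the plakophilin of heart and simple epithelia, was at 0.159, 0.120, 0.908 and 0.208 FPKM.

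Of the claudins, Cldn1, which the epidermal barrier requires, stood at 78.8, 60.6, 91.1 and 71.2 FPKM. The Cldn25 row (ENSMUSG00000022744), which is Cldnd1 in the names table and a claudin-domain protein, stood at 69.2, 60.6, 42.5 and 60.3 FPKM. Cldn4 stood at 30.6, 28.1, 46.5 and 79.1 FPKM. Both labelled cKO libraries lay above both controls for Cldn1, whereas Cldn4 separated the pairs, with both female libraries above both male ones. Cldn23 stood at 9.54, 11.5, 19.6 and 37.1 FPKM. Cldn12 stood at 10.7, 8.49, 7.30 and 7.26 FPKM. Lower still were Cldn8 at 2.45, 4.02, 4.26 and 8.30 FPKM and Cldn3 at 2.05, 2.10, 5.65 and 7.58. These 7 rows made up nearly all of the claudin sum. Cldn1 gave 38.6%, 34.2%, 41.4% and 26.1% of it, and Cldn4 gave 15.0%, 15.9%, 21.1% and 29.0%, which made Cldn4 the highest claudin in the female control and the second in the female labelled cKO.

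**Figure D2:**
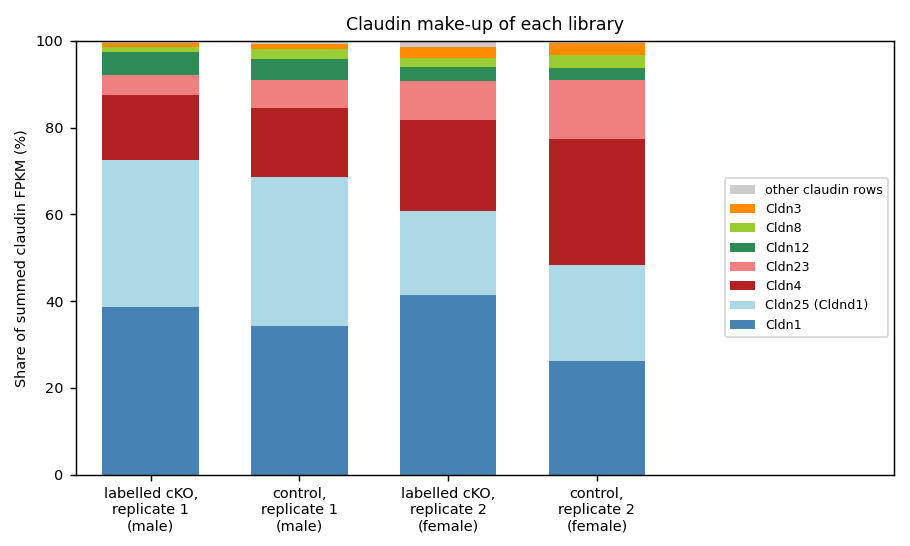
Share of the summed FPKM of all 27 claudin rows, in percent, taken by each of the 7 tested rows in each of the 4 libraries. Cldn4 and Cldn23 together take a larger share in the female libraries (21.1% and 8.90%, then 29.0% and 13.6%) than in the male ones (15.0% and 4.67%, then 15.9% and 6.48%).

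Occludin stood at 12.9, 11.5, 7.25 and 12.4 FPKM. ZO-1 (Tjp1) stood at 17.8, 18.6, 6.91 and 8.25 FPKM. Occludin was lowest in the female labelled cKO, and ZO-1 was lower in both female libraries. The vessel claudin Cldn5 is listed at 0 in all 4 libraries.

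Among the 41 untested rows, 13 reached 0.1 FPKM in some library, and 7 of these were highest in the female labelled cKO (53.8%, against 27.3% of all 6591 such genes of the table). These 7 were Cldn7, Pkp2, Cldn6, Cldn15, Cdh2, Cdh23 and Cdh5, so that they also held the cadherins of neural, mesenchymal and endothelial cells. Cldn7, a claudin of simple epithelia, stood at 0.0365, 0.357, 1.96 and 0 FPKM. Cldn6, a claudin of early epithelia, was listed at 0.659 FPKM in that library and at 0 elsewhere. The simple-epithelial keratins Krt8 and Krt18, in the Merkel cell list, were at 9.10 and 12.6 FPKM in the same library and at most 0.799 and 0.0391 in the others, while Krt20 and Atoh1 of that list had means below 1. Des of the muscle list was also at 5.01 FPKM in that library and listed at 0 in the others. Col1a1 of the fibroblast list was at 6.99 FPKM there and at most 1.80 elsewhere, while Col1a2 was highest in the male labelled cKO (21.9 FPKM). The part of other cell types in these values was not tested.

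The comparison of labelled cKO with control HFSCs was made by label, since Sox9 FPKM did not separate the genotypes, as given above. Dependence on SOX9 was thus not tested directly. No junction gene was called between genotypes, 0 of 31 with genotype alone in limma's linear model on log2(FPKM + 1), and 0 of 31 with the replicate number as a block. Over all 14455 tested genes the first fit called 0 (0.0%) and the blocked fit 41 (0.284%), of which 15 were higher (0.104%) and 26 lower (0.18%). Lhx2 of the bulge marker list was among the lower ones (-1.40, adjusted p = 0.0273 in the blocked fit). With so few calls over all genes, 0 of 31 does not show that these genes are unchanged. At an unadjusted p under 0.05 the first fit held 0 junction genes (93 of all tested, 0.643%) and the blocked fit 6 (1648 of all tested, 11.4%). These 6 were Dsg2, Cldn8, Cdh1, Cldn1, Cldn23 and Dsc2, with adjusted p between 0.312 and 0.387 in the blocked fit. The median change of the 31 genes was -0.07 on the log2 scale, beside -0.01 over all tested genes. With 2 libraries a group, an exact permutation test of a single gene cannot go below a two-sided p of 0.333.

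Within the pairs, 11 of the 31 genes were lower in the labelled cKO of both pairs, 8 were higher in both, and 12 differed in sign. Over all tested genes 58.0% had the same sign in both pairs. The largest changes of constant sign, given as log2 differences in the male and then the female pair, were those of Dsc2 at 2.05 and 0.28 (mean 1.16, SE 0.40 in the blocked fit). Dsg2 differed by 0.87 and 0.54 (mean 0.71, SE 0.19). Cldn8 differed by -0.54 and -0.82 (mean -0.68, SE 0.20). Cdh11, whose low level is given above, differed by 0.24 and 0.90, Cldn23 by -0.24 and -0.89, and Cdh1 by -0.26 and -0.54. The desmosomal cadherins with higher values in the labelled cKO of both pairs were thus Dsc2 and Dsg2, with Dsc3 at 0.03 and 0.01. No catenin kept 1 sign, and 4 of the 5 tested plaque genes were lower in both pairs by small amounts, from -0.17 for Dsp to -0.07 for Pkp3 as means.

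The direction for 2 of these genes rested on single libraries. Without the female labelled cKO library the genotype difference of Cdh1 was 0.05, against -0.40 with all 4. Without the female control library that of Cldn23 was 0.24, against -0.57. The other differences kept their sign but moved by over 1.5 times as single libraries were left out. That of Dsg2 ran from 0.21 without the male labelled cKO to 1.21 without the female one, and that of Dsc2 from 0.66 to 1.66 with the same libraries left out. Cldn8 ran from -0.24 without the female control to -1.13 without the male control, and Cdh11 from 0.24 to 0.91 with these left out.

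**Figure D3:**
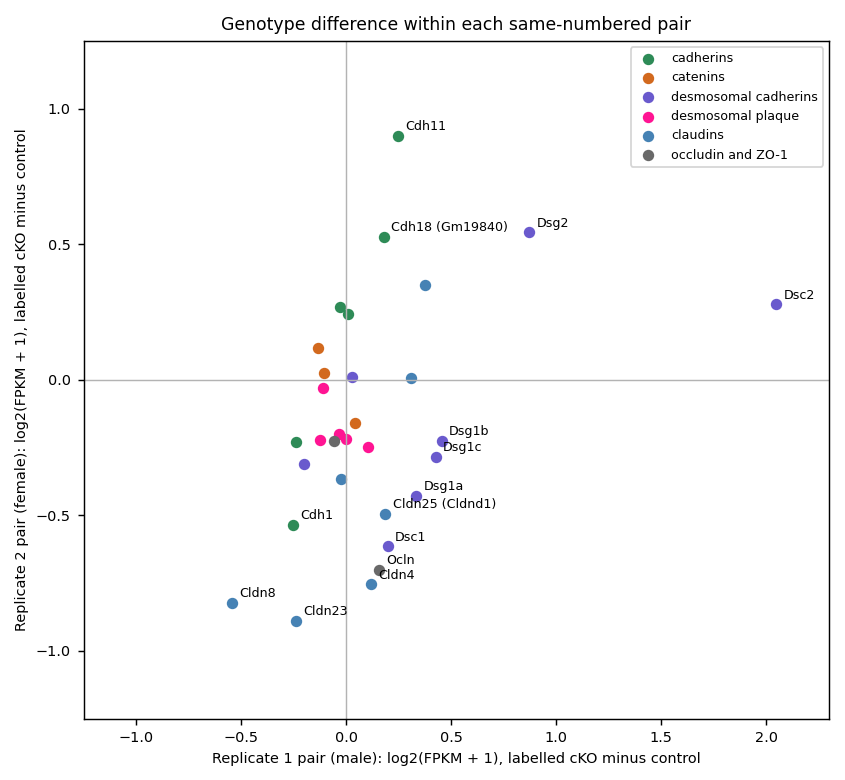
Difference in log2(FPKM + 1), labelled cKO minus control, in the male pair (x axis) and the female pair (y axis) for the 31 tested junction genes, coloured by role. Genes in the upper right and lower left quadrants kept 1 sign (8 and 11 genes), and Dsc2 lies far right at 2.05 in the male pair but at 0.28 in the female one.

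The comparison of the pairs differed from that of the genotypes. With genotype as a term, 22 of the 31 junction genes differed between replicate 2 and replicate 1 (71.0%), beside 50% of all tested genes. Of these 5 were higher in replicate 2 (16.1%, beside 25.8% of all tested genes) and 17 lower (54.8%, beside 24.1%). Their median change was -0.50 against -0.00 over all tested genes. Sex, age, treatment days and any preparation shared by a pair cannot be told apart.

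The 17 lower genes were 3 cadherins, 3 catenins, 6 desmosomal cadherins, 4 plaque genes and Tjp1. Dsp fell by 1.76 on the log2 scale (SE 0.12, adjusted p = 0.000333). Dsc3 fell by 1.14 (SE 0.12) and Dsg3 by 1.17 (SE 0.12), so both basal desmosomal cadherins moved by a similar amount. Dsg1b, Dsg1c and Tjp1 fell by 1.20, 1.19 and 1.17. The 3 catenins fell by 0.52 (Ctnnb1), 0.57 (Ctnna1) and 0.86 (Ctnnd1). Cdh1, Cdh3 and Cdh13 fell by 0.74, 0.84 and 0.86. Dsg2, Dsg1a, Pkp1, Pkp4 and Jup fell by between 0.84 and 0.45. Pkp3 did not pass, with a change of 0.11 (SE 0.12, adjusted p = 0.482).

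The higher genes were 4 claudins and the Gm19840 row. Cldn3 rose by 1.30 (SE 0.21, adjusted p = 0.00271) and Cldn23 by 1.29 (SE 0.19, adjusted p = 0.00176). Cldn4 rose by 1.02 (SE 0.21, adjusted p = 0.00643) and Cldn8 by 0.75 (SE 0.20, adjusted p = 0.0195). No claudin was called lower, and Cldn1, Cldnd1 and Cldn12 had differences of 0.22, -0.35 and -0.35 that did not pass. Of the 7 suprabasal marker genes 5 were also called higher in replicate 2 (Lor, Krtdap, Krt10, Ivl and Sbsn). Loricrin (Lor) stood at 247, 341, 1682 and 2775 FPKM and Krtdap at 966, 1085, 2767 and 4361. Krt1 was not called and had the opposite sign, at 473, 551, 387 and 482 FPKM (difference -0.24), and 0 of the 6 Flg rows were called. In the female pair all 7 suprabasal markers and Cldn4, Cldn23, Cldn8 and Cldn3 were higher in the control than in the labelled cKO. In the male pair Cldn4 (0.12) and Krt10 (0.03) went the other way, while Cldn3 (-0.02) and Sbsn (-0.01) hardly differed. The share of all tested genes that were higher in the female control was not computed. The part of suprabasal cells in these differences was not tested. Of the 8 bulge stem cell markers, Nfatc1, Lgr5, Tcf7l1 and Lhx2 were called lower in replicate 2 (differences of -1.78, -1.57, -1.34 and -0.63). Krt14 was called higher (0.51), and Sox9, Cd34 and Krt15 were not called.

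Locus span, the distance between the listed ends of a gene, also moved with the pair difference. From the shortest to the longest quintile of all tested genes the median difference between the pairs was 0.54, 0.20, -0.08, -0.31 and -0.38. The called claudins Cldn4, Cldn8 and Cldn23 lie in the shortest quintile, where their median was 1.02. In the next-to-longest quintile lie 10 junction genes, Cdh1, Dsp, Dsc3 and Tjp1 among them, whose median was -0.999. The median span of the 31 genes was 41.2 kb, beside 25.8 kb over all tested genes. With the trend on span removed, an alternative added after the data were seen, 14 junction genes differed between the pairs, beside 41.7% of all tested genes. Of the 14, 3 were higher and 11 lower, beside 21.8% higher and 19.9% lower of all tested genes. Scaling each library to the same FPKM sum moved the median of all tested genes to -0.51 and gave 3 higher and 23 lower junction genes, beside 11.2% higher and 47.9% lower of all tested genes. Without either male library, in a fit that then had no genotype term, 0 junction genes were called, as against 0 and 1 of all tested genes. Without the female labelled cKO there were 16, beside 39.6% of all tested genes, and without the female control 20, beside 43.6%.

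**Figure D4:**
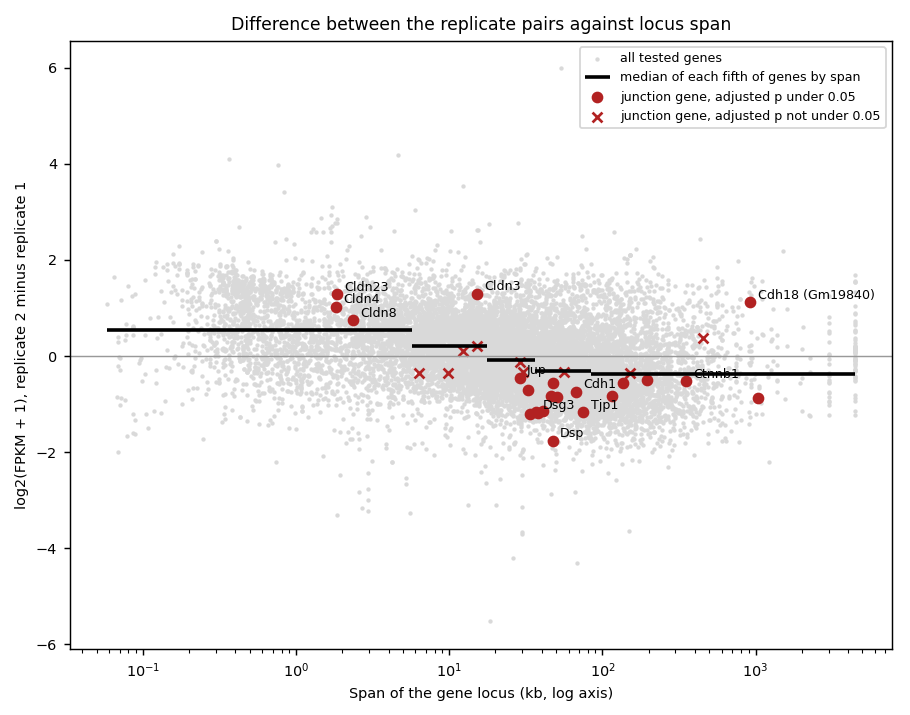
Difference in log2(FPKM + 1), replicate 2 minus replicate 1, against locus span in kb (log axis) for all 14455 tested genes (grey) and the 31 junction genes (red; filled, adjusted p under 0.05; cross, not). Black bars, the median of each quintile of genes by span, step down from 0.54 to -0.38, and Dsp lies below its bar at -1.76.

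The ChIP-seq comparison asks where SOX9 was bound near these genes. The deposited lists held 8181 and 2989 peaks for HFSCs and 5209 for IFE, with positions but no heights, so a peak is present or absent in a list. A peak shared by both HFSC lists lay within 10 kb of 13 of the 72 junction rows (18.1%, beside 9.5% of all rows of the table), and of 10 of the 31 tested genes (32.3%, beside 15.6% of all tested genes). Among tested genes alone in their listed locus these shares were 8 of 22 (36.4%) and 11.8%. These genes are longer than most, as given above, which widens the window, and the part of span in these shares was not tested. The larger HFSC list alone gave 21 rows and the smaller one 13.

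Of the 6 plaque genes 4 had a shared peak (Dsp, Jup, Pkp1 and Pkp3), beside 5 of the 25 cadherin rows. Among tested genes these were 4 of 5 and 2 of 6, beside 15.6% of all tested genes. The other rows were Cdh1 and Cdh3 among the expressed cadherins, Ctnnb1, Dsc3, Cldnd1 and Cldn8, and the 3 cadherin rows Cdh23, Cdh29 and Cdh15. Cdh23, the tip-link cadherin of the inner ear, was at most 0.204 FPKM in HFSCs, and Cdh29 (Gm20661 in the names table) at most 0.0827. The shared peaks inside the listed loci of Ctnnb1, Cdh23 and Dsp also lie in loci of other rows (Ulk4, 4632428N05Rik and Gm10129 among them). That near Cdh29 overlaps the locus of 6230427J02Rik, so none of these can be given to a single gene. The Cdh15 locus is listed as 4.44 Mb that 159 rows share, so its 37, 14 and 39 peaks cannot be assigned to it. It is left out of what follows.

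Without that locus, 15 peaks of the smaller HFSC list lay near junction genes. All 15 overlapped the larger HFSC list (100%, beside 68.6% of that whole list), and 13 overlapped an IFE peak (86.7%, beside 57.6%). Of the 47 peaks of the larger list near junction genes 15 overlapped the smaller list (31.9%, beside 25.0%).

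The exceptions to sharing with IFE were at Jup and Cldn8. Jup (chr11:100230271-100259077, mm9) held an HFSC peak inside the locus in both lists (chr11:100256059-100257090 and chr11:100256363-100257067), with its centre 2.50 kb and 2.36 kb from the upper edge, where Jup starts. Near Cldn8 (chr16:88561072-88563428) the HFSC peaks (chr16:88573037-88573922 and chr16:88573107-88573817) lay 9.61 and 9.68 kb beyond the locus. At Cldn8, the expression values were among those lower in the labelled cKO of both pairs, without passing the test. Jup differed by -0.00 and -0.22.

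At the classical cadherins the shared peaks lay away from the starts. Cdh3 and Cdh1 are neighbours, 46.4 kb apart. Cdh3 (chr8:109034790-109080808) held a peak of all 3 lists inside it (chr8:109044348-109044791 in the larger HFSC list), and another stood between the genes, 6.87 kb above its upper edge (chr8:109087676-109088315). Cdh1 (chr8:109127250-109194146) held 1 inside it (chr8:109170448-109171160). The files give no exons, so whether these lie in an intron was not read from them.

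The lists differed in the peaks that span an edge of a locus. The larger HFSC list had 5 (Dsc3, Dsg3, Pkp3, Jup and Cldnd1), the smaller one 4 (the same without Dsg3) and the IFE list 10. Those at Dsc3, Pkp3, Jup and Cldnd1 were in all 3 lists. A further 6 were in the IFE list alone, at Cdh1, Ctnna1, Dsp, Pkp1, Tjp1 and Cldn20, the last in a locus listed together with Tiam2 and Tfb1m. Of all 33 IFE peaks near junction genes, 63.6% overlapped the larger HFSC list, beside 45.7% of the whole IFE list. For the smaller HFSC list these shares were 45.5% and 33.3%. For edge peaks alone no share over all genes was computed. By the RefSeq strand, the edges at Jup, Cldnd1, Dsp and Tjp1 are the starts whose promoters are shown above. Dsg3 held 3 peaks of the larger HFSC list, 1 of them at its lower edge, that had no partner in either other list. With 1 IFE library there is no replicate of these differences, and they were not tested.

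Peaks of IFE but of neither HFSC list lay near 5 members, Cdh4, Ctnna1, Ctnnd1, Pkp4 and Tjp1. The share of such genes over the whole table was not computed. No peak of any list lay within 10 kb of 46 rows, likewise without a share over the whole table. Of the 31 tested genes 12 lacked a peak, so most had one, as did 51.4% of all tested genes. These 12 included 6 of the 8 tested desmosomal cadherins (Dsc1, Dsc2, Dsg1a, Dsg1b, Dsg1c and Dsg2) and the claudins Cldn1, Cldn4, Cldn12 and Cldn23. Dsc2 and Dsg2, which had the highest mean genotype differences without being called, were among these 12. A link between peaks and genotype differences was not tested.

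**Figure D5:**
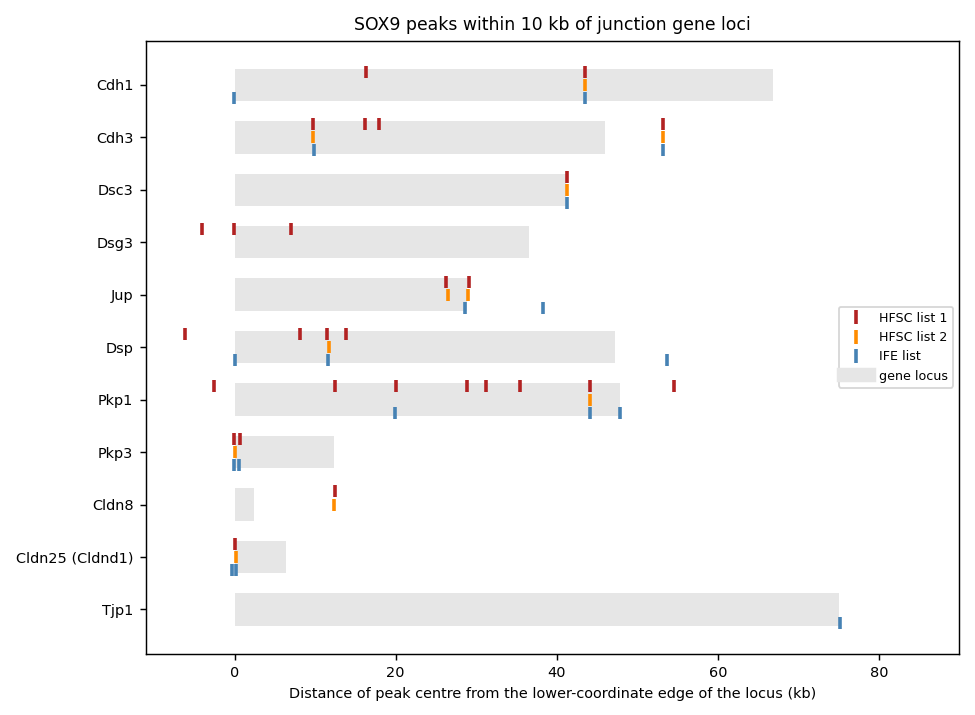
Centres of SOX9 peaks (ticks: HFSC list 1, HFSC list 2, IFE) in kb from the lower-coordinate edge of the locus (grey bar) for 11 junction genes, within 10 kb of each locus. Peaks of all 3 lists line up at an edge of Dsc3, Jup, Pkp3 and Cldnd1, while at an edge of Cdh1, Dsp, Pkp1 and Tjp1 only the IFE list has one.

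Of the genes that work with these junctions, grouped in 6 further lists, 0 were called for genotype in either fit. Between the pairs, 1 of 14 tested adherens junction partners was higher (7.14%) and 10 were lower (71.4%) in replicate 2, with a median of -0.76, beside 25.8% higher and 24.1% lower over all tested genes. Afadin (Mllt4, which ties nectins to actin) stood at 451, 691, 226 and 323 FPKM, lower in the labelled cKO of both pairs without passing the test, and Actn4 (an actin crosslinker) at 294, 329, 191 and 199. Of 9 desmosome and keratin-linker genes 2 were higher (22.2%) and 3 lower (33.3%), with a median of 0.04. Perp, a desmosome membrane protein, stood at 1471, 1447, 1673 and 1966 FPKM, and the basal keratins Krt5 at 7101, 7157, 8536 and 6277 and Krt14 at 1620, 2002, 2706 and 2415. The 17 tested tight junction partners had 4 higher (23.5%) and 7 lower (41.2%), with a median of -0.27, led in level by F11r (JAM-A) at 139, 147, 101 and 140 FPKM and Epcam at 77.5, 53.4, 111 and 97.0. The 8 tested members of the wider cadherin superfamily had 0 higher and 6 lower (75%), with a median of -1.24. Clstn1 stood at 179, 232, 144 and 171 FPKM, Fat1 at 63.9, 87.2, 20.3 and 23.2, and Fat2 at 59.6, 63.4, 14.5 and 13.4. The 5 tested gap junction connexins had 2 higher (40.0%) and 1 lower (20.0%), with a median of 0.43, and Gjb5, the highest, stood at 34.4, 46.4, 48.2 and 68.7 FPKM.

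Of 13 transcription factors known to regulate junction genes 7 were tested, of which 1 was higher (14.3%) and 2 were lower (28.6%) in replicate 2 (median -0.08), beside the same 25.8% and 24.1% over all tested genes. Klf4, an epidermal differentiation factor, stood at 472, 424, 198 and 268 FPKM. Grhl1 and Grhl2, which act on desmosomal and E-cadherin genes, had mean levels of 33.8 and 31.0 FPKM. Of the E-cadherin repressors in this list, Snai2 stood at 13.4, 21.5, 11.1 and 14.1 FPKM, lower in the labelled cKO of both pairs without passing the test (adjusted p = 0.376 in the blocked fit). Snai1, Zeb1, Zeb2 and Twist1 were each below 1 FPKM in every library.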

How the data were processed

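RNA was measured in 4 HFSC libraries and SOX9 binding in 3 ChIP libraries, and 3 input libraries have no values used here. Expression was deposited as FPKM per gene row, per the file headers. Bowtie, TopHat, TopHat2, Cufflinks 1.0.3 and the build mm9 appear in the submitters' processing notes, with no roles. The deposited peak lists give positions only. For the peak caller and strand setting, the sources used here give nothing. Read depth is not known, so a value listed at 0 may be a low one, and FPKM shifts with the make-up of a library.

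Values were tested as log2(FPKM + 1), which understates changes of low genes, over 14455 genes with a mean of at least 1 FPKM, with limma 3.58.1 in R 4.3.3 (mean trend, two-sided, Benjamini-Hochberg over all tested genes, threshold 0.05). The genotype fit had no block and left 2 residual degrees of freedom, and the fit blocked on replicate number left 1. Replicate numbers mark sex, age and treatment days in the labels, and deviations of same-numbered libraries from their group means correlated at 0.812 (14455 genes, not independent). Peaks counted within 10 kb of a listed locus, and peaks shared by overlap of at least 1 bp.

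The genes, lists and rule were chosen with earlier results of these data known. Genes given in full had a mean of at least 10 FPKM, passed a genotype test, passed the pair test with a log2 change of at least 1, had a peak in both HFSC lists, or were among the 6 largest genotype changes of constant sign. Of each further list, genes among its 3 highest by mean level are named. Genes outside this rule were named after their values were seen. Of the 72 identifiers, 66 have the same symbol in the names table, 5 another and 1 none. Symbols are those of the files. Alternatives were other pseudocounts, filters, scalings, windows and overlaps, no mean trend, and leaving out each library.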

Additional observations from a re-analysis of the deposited data

Results flagged for a closer look

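The 3 desmoglein 1 copies differed in opposite directions between genotypes in the pairs. The log2 difference, labelled cKO minus control, was 0.33 in the male and -0.43 in the female pair for Dsg1a, 0.45 and -0.23 for Dsg1b, and 0.43 and -0.28 for Dsg1c. The difference between the pairs was not tested, and the least size of 0.2 in each pair was chosen after the values were seen. These copies are nearly identical, so their values are not independent.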

How the results depend on the processing

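The number of junction genes called for genotype was 0 under every alternative that kept all 4 libraries, the replicate block included. For the 7 genotype differences named singly, 89 of the recomputed values kept their direction and side of the threshold, and 2 reversed. The genotype fits called few or no genes over all, so the side of the threshold was largely fixed beforehand. The replicate block, the missing filter and the missing mean trend cannot move a difference itself, which stayed at -0.3954 for Cdh1. Leaving out each library gave -0.84 to 0.05 for Cdh1 and -1.37 to 0.24 for Cldn23, with 0.0464 for Cdh1 without the female labelled cKO and 0.2414 for Cldn23 without the female control.

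The number of genes that differed between the pairs was 22. It was 0 without a filter on low values, where 0 of 37298 genes passed, and 14 with the span trend removed. It was 18 without genotype as a term (no replicate block for genotype). Leaving out each library, in a fit without a genotype term, gave 0 to 20. The fit with that term then leaves no residual degrees of freedom and was not run. For single genes 167 recomputed values kept the call and 97 lost it, none with a reversed direction.

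The number of rows with a peak in both HFSC lists was 13, and 9 among rows alone in their locus. Leaving out each HFSC list gave 13 to 21, with 21 from the larger list alone. The span, locus and left-out pair alternatives were chosen after seeing the data. With 2 libraries a group and 1 IFE library, the number of libraries limits the precision, and the depth is unknown.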
